A study of Rattus norvegicus with 11 samples.

Results

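The genes described here encode the protein components of the cytosolic ribosome (Rpl and Rps genes) and of the mitochondrial ribosome (Mrpl and Mrps genes) in the injured rat spinal cord. Members were chosen by name alone, as protein-coding entries called Rpl or Rps, or Mrpl or Mrps, plus a number, with a short suffix allowed for the cytosolic genes, and with at least 10 counts in total. The rule gave 150 genes of the 30443 listed, of which 80 were cytosolic and 70 were mitochondrial. RNA was taken from the lesion epicentre of female Sprague-Dawley rats at 1, 3 and 6 months (1 M, 3 M and 6 M) after a moderate contusion at thoracic level T9, and from the same level of sham rats that received a laminectomy but no contusion. The labels give an age of 12 to 14 weeks for every group, and the paper lists this age for the rats as purchased. Each library pooled 3 rats. The comparison rested on 3 libraries at 1 M, 3 at 3 M, 2 at 6 M and 3 control libraries, since the study excluded the third 6 M library, which is not analysed here. Control rats were all collected at the 6-month time point, so the time since surgery was shorter in the 1 M and 3 M rats than in control. If the listed age was that at surgery, the 1 M and 3 M rats were also younger at collection than control rats.

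Cytosolic ribosomes translate nearly all cellular mRNAs, and their proteins are made in balanced amounts from some of the most abundant transcripts of a cell. Many of these transcripts begin with an unbroken stretch of pyrimidines, the 5′ terminal oligopyrimidine (TOP) motif, through which mTOR signalling controls their translation. Mitochondrial ribosomes translate the few mRNAs of the mitochondrial genome, all of which encode subunits of the oxidative phosphorylation (OXPHOS) complexes. Their proteins are encoded in the nucleus, made in the cytosol and imported, and roughly comprise a set with bacterial counterparts and a set found only in mitochondria. Neurons, which depend strongly on oxidative phosphorylation, and oligodendrocytes are lost after spinal cord contusion, while microglia and macrophages accumulate.

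The transcript start is shown for members on which the results turn, because the pyrimidine run of TOP mRNAs was, of the features searched, the one whose share differed most between the classes. Each line holds 20 bases before and 20 bases from the annotated start, on the gene's strand, from RefSeq promoters of the GRCr8 build, and the longest unbroken pyrimidine (C or T) run that touches the 5 bases on either side of the start is in capitals.
Rpl12, chr3:36661920-36661959, plus strand: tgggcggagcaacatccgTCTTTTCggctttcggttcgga
Rpl31, chr9:49143091-49143130, plus strand: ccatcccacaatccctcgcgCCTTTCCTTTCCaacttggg
Rpl9, chr14:43247570-43247609, plus strand: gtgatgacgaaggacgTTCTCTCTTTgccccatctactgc
Rpl13a, chr1:104748894-104748933, minus strand: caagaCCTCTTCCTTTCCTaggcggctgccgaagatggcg
Rps27l, chr8:76443638-76443677, plus strand: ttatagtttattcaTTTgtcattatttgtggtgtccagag
Rpl22l1, chr2:113683176-113683215, plus strand: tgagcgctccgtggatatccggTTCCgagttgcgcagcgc
Mrps15, chr5:143606121-143606160, plus strand: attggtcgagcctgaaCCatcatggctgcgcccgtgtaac
Mrps27, chr2:32474184-32474223, plus strand: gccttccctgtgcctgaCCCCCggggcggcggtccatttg
Mrpl12, chr10:106256726-106256765, plus strand: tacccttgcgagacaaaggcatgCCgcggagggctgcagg
Mrpl28, chr10:15653159-15653198, plus strand: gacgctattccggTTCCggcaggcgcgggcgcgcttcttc
Mrps6, chr11:44778647-44778686, plus strand: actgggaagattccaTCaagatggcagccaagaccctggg

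A promoter was matched by symbol for 49 of the 65 cytosolic gene names tested and for 54 of the 69 mitochondrial ones. A run of at least 8 pyrimidines at the start was present in 28 of the 49 cytosolic promoters (57.1%) and in 4 of the 54 mitochondrial promoters (7.41%), against 9.01% of all 27457 RefSeq promoters. The cytosolic paralogues Rps27l and Rpl22l1, both of which were called at 1 M, had runs of 3 and 4 bases. Short runs were not limited to paralogues. Of canonical genes called at 1 or more times, Rpl12, Rpl24 and Rps4x had runs of 7, 6 and 5 bases, and Rpl9 and Rpl31 of 10 and 12. A second feature was found at similar shares in both classes. The letters CCGGAAG, the core of sites for ETS family factors such as GABP, stood on either strand within the 300-base promoter (250 bases before and 50 from the start) of 17 cytosolic genes (34.7%) and 16 mitochondrial genes (29.6%), against 9.22% of all promoters. It is shown in capitals, as CCGGAAG or its reverse complement CTTCCGG, in the stretch from 100 bases before to 10 bases from the start of a strongly lowered mitochondrial gene, of the mitochondrial gene with the highest control FPKM and of a cytosolic gene.
Mrps27, chr2:32474104-32474213, plus strand: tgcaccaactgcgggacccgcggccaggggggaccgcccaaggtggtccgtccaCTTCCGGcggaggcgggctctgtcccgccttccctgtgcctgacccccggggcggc
Mrpl33, chr6:30553978-30554087, minus strand: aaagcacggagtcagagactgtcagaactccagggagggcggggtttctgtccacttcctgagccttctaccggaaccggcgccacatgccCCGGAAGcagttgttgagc
Rpl31, chr9:49143011-49143120, plus strand: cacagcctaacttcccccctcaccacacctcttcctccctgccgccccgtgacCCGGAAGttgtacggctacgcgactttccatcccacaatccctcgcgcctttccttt
Letters searched for NRF1 sites (GCATGCGC) were in 7.41% of mitochondrial, 4.08% of cytosolic and 2.66% of all promoters, and those for YY1 sites (AAGATGGCG) in 14.8%, 4.08% and 1.93%, each on both strands. Mrps15, Mrpl12 and Mrpl28, also strongly lowered, held no CCGGAAG on either strand of the 300-base promoter. A match is a description of these letters and not evidence of binding.

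Total counts per library were between 10057646 and 49986531, and the 3 control libraries (10057646 to 19241259) were shallower than all SCI libraries. Of the members, 70 cytosolic and 69 mitochondrial genes were among the 14867 genes with an FPKM (fragments per kilobase, scaled to the mapped fragments of a library) above 1 in at least 1 library, which were the genes tested. The untested members were Mrpl1 (31 counts in total) and 10 cytosolic entries. One of these, an Rpl35a entry (ENSRNOG00000047557), held 22820 counts but its FPKM was listed at the deposited floor of 0.1. Cytosolic ribosomal protein genes have many near-identical copies in the rat genome, and the count and FPKM columns did not always place their reads at the same copy. Of 97 cytosolic entries that matched the name rule, 17 had under 10 counts, among them Rpl10a and Rpl23a, which were at 0 counts but at a mean FPKM of 283 at 1 M, 320 at 3 M, 326 at 6 M and 291 in control for Rpl10a, and of 683, 720, 747 and 650 for Rpl23a. Rpl7a, Rpl8 and Rps6 were at 0 counts and at the FPKM floor. Values of single cytosolic genes are therefore uncertain where copies exist. Among the members, 18 entries share 7 names. This count leaves out Rpl10a, Rpl23a and copies under other names, such as Rpl31l4 and Rps27l3, so the other entries are not shown to be free of this uncertainty.

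Per length, cytosolic ribosomal protein genes were expressed far above mitochondrial ones. In control, the median over the tested genes was 487 FPKM for the cytosolic class and 30.3 FPKM for the mitochondrial class. The highest control levels were those of Rps29 (2495 FPKM for ENSRNOG00000004196), Rpl41 (1437 FPKM) and Rpl13a (1170 FPKM), and, among mitochondrial genes, of Mrpl33 (201 ± 56.5 FPKM), Mrpl27 (102 ± 20.3 FPKM) and Mrpl54 (97.2 ± 24.2 FPKM, SD, n = 3 libraries for each). Mrpl30 (1.59 FPKM), Mrpl47 (6.27 FPKM) and Mrpl40 (6.94 FPKM) were the lowest of the mitochondrial class.

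Mitochondrial ribosomal protein genes were downregulated as a class at 1 M and 3 M and, in smaller number, at 6 M, and none was upregulated, while most cytosolic ribosomal protein genes did not pass the test at any time. Of 69 mitochondrial genes, edgeR (adjusted p under 0.05 over all genes tested) called 60, 59 and 43 lower at 1, 3 and 6 months. The corresponding shares of all genes tested were 31.5%, 31.4% and 27.2% lower and 25.5%, 29.7% and 26.8% higher. The median log2 fold change of the class was -0.64, -0.69 and -0.51, which corresponds to levels lower by 35.8%, 38.2% and 29.8%, beside -0.05, 0.00 and 0.00 over all genes. Of 70 cytosolic genes, 4, 3 and 6 were called higher and 6, 3 and 1 lower, with class medians of -0.07, -0.02 and 0.10. Leaving out 1 library moved these cytosolic medians across 0, between -0.23 and 0.10, -0.19 and 0.16, and -0.08 and 0.24, so no direction is given for the class. At each of the 3 times, 67 of the 69 mitochondrial genes lay below the median of the cytosolic class.

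**Figure D1:**
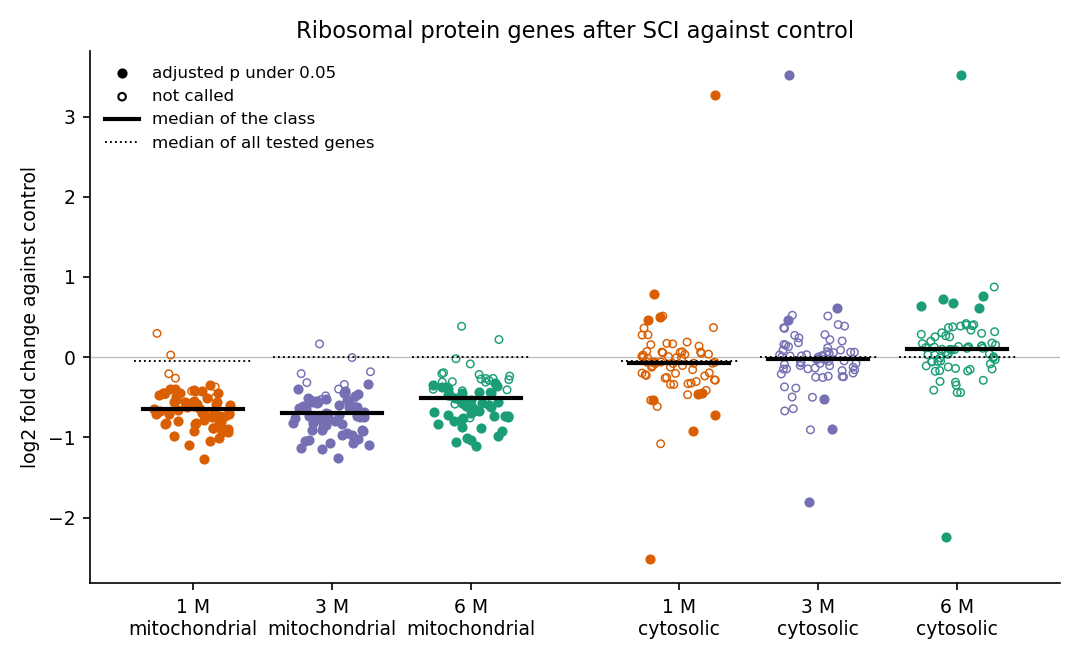
Log2 fold change against control (vertical axis, edgeR) of each tested cytosolic (70) and mitochondrial (69) ribosomal protein gene at 1, 3 and 6 months, with 1 point per gene. Mitochondrial genes lie mostly below 0, with medians of -0.64, -0.69 and -0.51, and cytosolic genes lie around 0.

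The size of these counts depended on the measure. Tested as log2(FPKM + 1) with limma, the mitochondrial genes called numbered 34 (33 lower), 36 (32 lower) and 23 (21 lower), and the cytosolic genes called higher numbered 16, 23 and 19. On that scale the median of all genes lay at 0.26, 0.36 and 0.30, and relative to it the mitochondrial median was -0.54, -0.65 and -0.51. A further setting corrected for a gene length inferred from the ratio of counts to FPKM, not taken from an annotation. This length carries the mismatch between counts and FPKM among gene copies described above. With this correction, 22, 24 and 27 cytosolic genes were called higher. The mitochondrial median was then -0.45, -0.54 and -0.41, or -0.36, -0.51 and -0.40 relative to all genes. The shares of all genes called higher with limma on FPKM or with this correction are not given here. The cytosolic counts are therefore not read as a rise of the class. The count of 43 mitochondrial genes at 6 M was 25 without 6 M library 1, 26 without 6 M library 2, 26 with libraries scaled by their total counts and 25 with no filter on low values.

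The class sums, over all 80 cytosolic and 70 mitochondrial members with the untested ones included, were also compared library by library. Counts are given here and below as CPM, the count scaled to library size after TMM normalisation. The mitochondrial genes together took 2558, 2172 and 1882 CPM at 1 M, 2055, 2171 and 2273 CPM at 3 M and 2323 and 2472 CPM at 6 M, against 2964, 4170 and 3311 CPM in control. Every SCI library was below every control library. The means were 2204 ± 339, 2166 ± 109 and 2397 ± 106 CPM against 3481 ± 621 CPM in control (SD, n = 3, 3, 2 and 3), or 0.633, 0.622 and 0.689 of control. The summed FPKM gave 0.751, 0.768 and 0.828 of control.

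The cytosolic genes together took 23652, 19319 and 16398 CPM at 1 M, 19231, 20329 and 22907 CPM at 3 M and 20275 and 25017 CPM at 6 M, against 16133, 25965 and 21366 CPM in control. These ranges overlapped, and the control libraries alone differed by more than the group means did (19790 ± 3650, 20822 ± 1887 and 22646 ± 3353 CPM, against 21155 ± 4919 CPM in control). The means were 0.935, 0.984 and 1.07 of control, whereas the summed FPKM of the class gave 1.06, 1.17 and 1.23 of control. For every 100 cytosolic ribosomal protein counts a library held 10.8, 11.2 and 11.5 mitochondrial ones at 1 M, 10.7, 10.7 and 9.92 at 3 M, and at 6 M 11.5 and 9.88, against 18.4, 16.1 and 15.5 in control. In this ratio the scaling of the libraries cancels, and SCI and control libraries did not overlap.

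**Figure D2:**
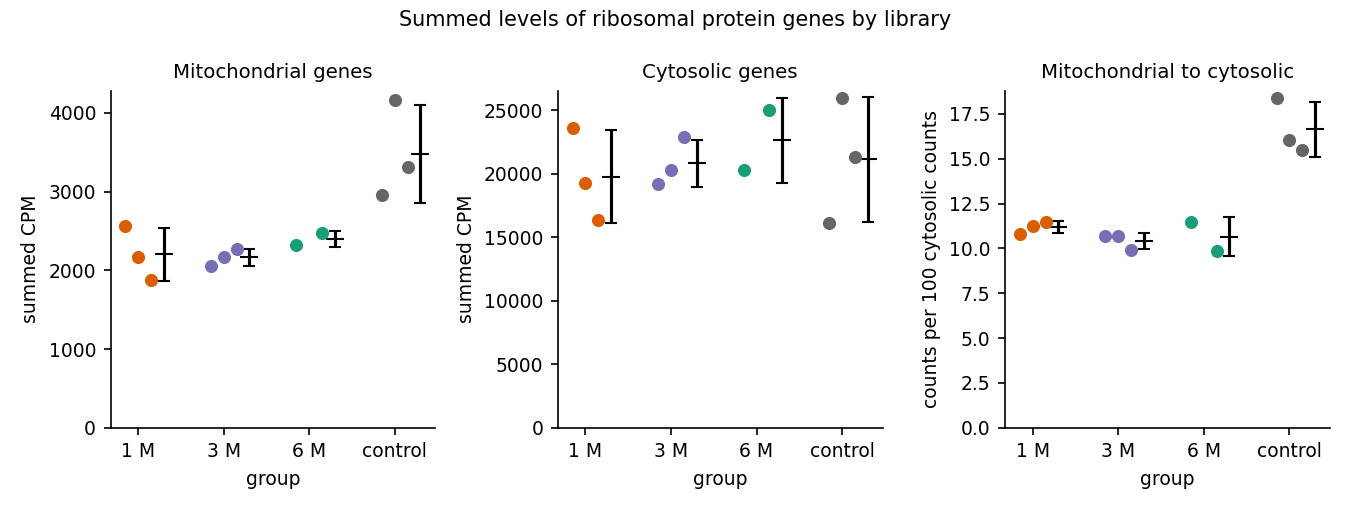
Summed CPM of the 80 cytosolic and 70 mitochondrial members, untested ones included, and mitochondrial counts per 100 cytosolic counts. Each point is 1 library of the 1 M, 3 M, 6 M or control group, with the mean ± SD of each group beside it. Every SCI library holds fewer mitochondrial counts per 100 cytosolic counts (9.88 to 11.5) than any control library (15.5 to 18.4), while the cytosolic sums overlap.

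At 3 M the largest falls of the mitochondrial class were those of 3 small subunit genes, Mrps34, Mrps15 and Mrps27. Mrps34, a protein of the small subunit that is found only in mitochondria, was at 29.7, 22.1 and 17.4 CPM at 1 M, 21.9, 22.5 and 25.6 CPM at 3 M and 24.4 and 27.2 CPM at 6 M, against 42.7, 75.8 and 49.1 CPM in control. All SCI libraries were below all control libraries, although control library 2 stood well above the other control libraries. The log2 fold change was -1.26 ± 0.23, -1.26 ± 0.23 and -1.11 ± 0.26 (SE, adjusted p = 0.0011, 0.00089 and 0.005 by edgeR). Mrps15, the homologue of bacterial S15 and an rRNA-binding protein of the early small subunit, was at 51.2, 40.5 and 39.1 CPM at 1 M, 33.2, 38.1 and 38.1 CPM at 3 M and 39.0 and 38.6 CPM at 6 M, against 70.3, 94.8 and 76.5 CPM in control. Its libraries were separated by a wide gap, and its log2 fold change was -0.88 ± 0.14, -1.14 ± 0.14 and -1.05 ± 0.16 (adjusted p = 0.00044, 6.2e-05 and 0.00035 by edgeR). Mrps27, a pentatricopeptide repeat protein of the small subunit, was at 36.0, 30.6 and 25.3 CPM at 1 M, 24.4, 25.1 and 27.4 CPM at 3 M and 28.7 and 27.4 CPM at 6 M, against 55.9, 63.8 and 49.3 CPM in control. All SCI libraries were again the lower ones, and the log2 fold change at 3 M was -1.13 ± 0.14 (adjusted p = 7.1e-05 by edgeR).

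Further small subunit genes followed the same course. Mrps35, found only in mitochondria, changed by -1.04, -1.10 and -0.87 on the log2 scale, and Mrps28 by -0.93, -1.03 and -0.79. Mrps36 is named as a small subunit protein but is now assigned to the 2-oxoglutarate dehydrogenase complex. It was at 31.7, 27.4 and 25.5 CPM at 1 M, 25.1, 28.8 and 27.4 CPM at 3 M and 32.3 and 35.8 CPM at 6 M, against 43.3, 69.0 and 57.7 CPM in control, and its level was lower by 50.1% at 1 M and changed by -1.06 and -0.73 on the log2 scale at 3 M and 6 M. The calls of Mrps36 were lost when FPKM were tested. In all, 22, 22 and 18 of 26 small subunit genes were lower, with medians of -0.62, -0.73 and -0.60.

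Most large subunit genes were lower as well. Mrpl12, the L7/L12 protein of the stalk that recruits translation factors, was at 61.5, 48.4 and 37.9 CPM at 1 M, 41.8, 44.1 and 50.6 CPM at 3 M and 45.5 and 46.7 CPM at 6 M, against 81.2, 121 and 79.8 CPM in control. Every SCI library was again below every control library, with a log2 fold change of -0.93 ± 0.19, -1.05 ± 0.20 and -1.03 ± 0.22 (adjusted p = 0.0026, 0.001 and 0.0032 by edgeR). Mrpl28 was at 36.3, 33.6 and 25.9 CPM at 1 M, 32.2, 32.9 and 35.7 CPM at 3 M and 33.6 and 35.9 CPM at 6 M, against 52.5, 96.0 and 57.5 CPM in control, or -1.10, -1.02 and -0.98 on the log2 scale. Mrpl13 changed by -0.83, -1.07 and -0.83, and its 6 M call was lost without either 6 M library (adjusted p = 0.057 and 0.054 by edgeR).

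Mrpl33, the mitochondrial gene with the highest control FPKM, was at 29.6, 29.3 and 24.4 CPM at 1 M, 27.1, 29.5 and 31.8 CPM at 3 M and 37.1 and 37.3 CPM at 6 M, against 38.6, 73.2 and 53.9 CPM in control. The 6 M libraries were just below the lowest control library, and the log2 fold change was -0.99, -0.90 and -0.57 (adjusted p = 0.0016, 0.0021 and 0.044 by edgeR). The 6 M call was lost without either 6 M library or without control library 2 or 3 (adjusted p = 0.074 to 0.136). Mrpl4 changed by -0.82, -0.85 and -0.64. Of 43 large subunit genes, 38, 37 and 25 were lower, with medians of -0.64, -0.67 and -0.49. The calls of Mrps34, Mrps15, Mrps27, Mrps35, Mrpl12, Mrpl28 and Mrpl4 were kept at all 3 times in every alternative run on them.

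**Figure D3:**
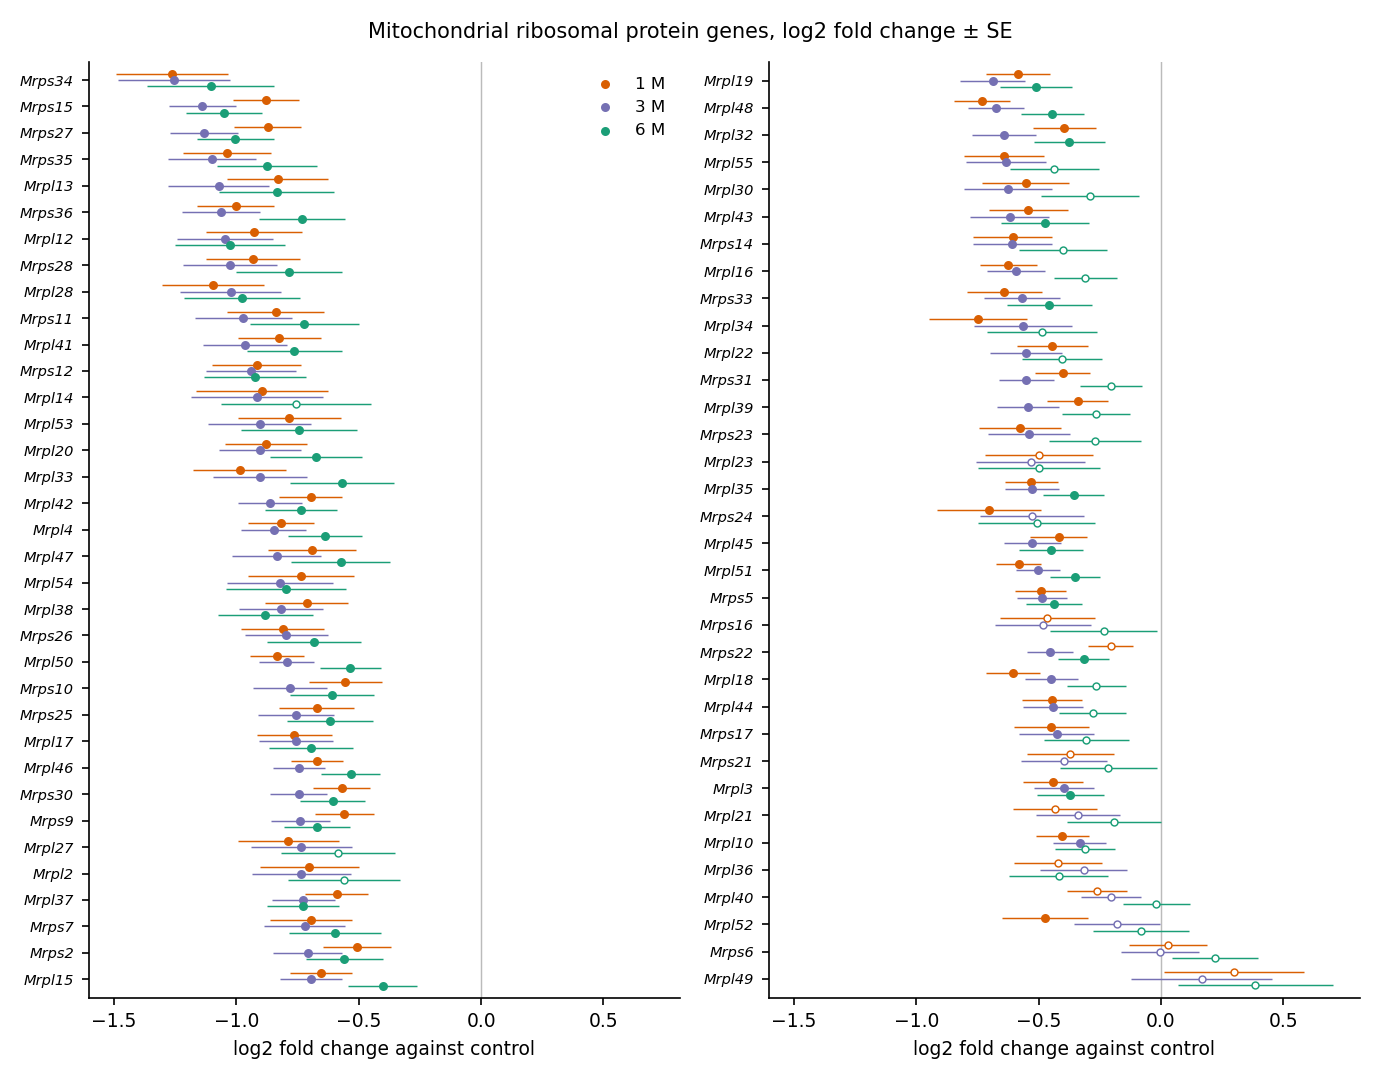
Log2 fold change against control (horizontal axis, ± SE, edgeR) of the 69 mitochondrial ribosomal protein genes at 1, 3 and 6 months, ordered by the 3 M value, with filled points at an adjusted p under 0.05. Mrps34, Mrps15 and Mrps27 are at the low end and Mrps6 and Mrpl49 are at the other.

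The study called differentially expressed genes (DEGs) with DESeq, at an adjusted p under 0.01 and at least a 2-fold change. Here this threshold was applied to the edgeR results, so the genes need not be DEGs of the study. At 1 M, 4 mitochondrial genes were DEGs (Mrpl28, Mrps34, Mrps35 and Mrps36). There were 9 at 3 M (Mrpl12, Mrpl13, Mrpl28, Mrps15, Mrps27, Mrps28, Mrps34, Mrps35 and Mrps36) and 4 at 6 M (Mrpl12, Mrps15, Mrps27 and Mrps34), all lower. Of all genes tested, 7.02%, 10.9% and 9.56% were lower DEGs at these times. The change of the mitochondrial class was therefore broad and moderate in size, and most of it lay below this threshold. By edgeR at adjusted p under 0.05, 61 of the 69 were lower at 1 or more times, 42 at all 3 times and 16 at 1 M and 3 M only. In 55 of 69 genes (79.7%) all 8 SCI libraries were below all 3 control libraries, against 27.1% of all genes tested, and in none were they all above (22.8% of all genes).

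Components with a bacterial counterpart and those found only in mitochondria gave similar counts, in a grouping made after the values were seen. Of 41 genes with a bacterial counterpart, 35, 34 and 22 were lower, with medians of -0.62, -0.69 and -0.51. Of 27 genes found only in mitochondria, 24, 24 and 20 were lower, with medians of -0.64, -0.73 and -0.53. The difference between these groups was not tested.

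The 8 mitochondrial genes called at no time were Mrpl21, Mrpl23, Mrpl36, Mrpl40, Mrpl49, Mrps6, Mrps16 and Mrps21. Most of them had negative log2 fold changes that missed the threshold, such as Mrpl23 (-0.50, -0.53 and -0.50, adjusted p = 0.075, 0.057 and 0.11 by edgeR). Mrps6, the homologue of bacterial S6, stood apart. It was at 78.2, 66.1 and 54.1 CPM at 1 M, 62.7, 66.9 and 64.8 CPM at 3 M and 68.1 and 83.3 CPM at 6 M, against 53.1, 77.7 and 64.4 CPM in control, and its log2 fold change was 0.03, -0.00 and 0.22 (adjusted p = 0.9, 0.99 and 0.31 by edgeR). Mrpl49 was at 7.66, 3.63 and 4.52 CPM at 1 M, 5.02, 5.13 and 4.42 CPM at 3 M and 5.73 and 5.60 CPM at 6 M, against 3.34, 3.89 and 5.55 CPM in control. For Mrpl49 the 1 M and 3 M libraries overlapped those of control, those of 6 M lay just above them, and its log2 fold change was 0.30, 0.17 and 0.39 (adjusted p = 0.4, 0.64 and 0.32 by edgeR). The other 67 mitochondrial genes were negative at all 3 times.

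For part of the mitochondrial genes counts and FPKM disagreed in direction. The fitted change in counts was negative while the mean FPKM was above that of control in 8 genes at 1 M, in 12 at 3 M and, at 6 M, in 18, or in 22 of 69 genes at 1 time or more. Mrpl51, a large subunit protein found only in mitochondria, was at 39.2, 39.3 and 44.7 CPM at 1 M, 39.7, 46.1 and 44.3 CPM at 3 M and 49.6 and 46.7 CPM at 6 M, against 61.2, 63.9 and 59.4 CPM in control (log2 fold change -0.58, -0.50 and -0.35). Its mean FPKM was 12.8, 13.6 and 13.7 at the 3 times, against 10.9 in control. The others were Mrpl3, Mrpl10, Mrpl16, Mrpl18, Mrpl21, Mrpl30, Mrpl35, Mrpl36, Mrpl39, Mrpl40, Mrpl44, Mrpl45, Mrpl52, Mrps6, Mrps14, Mrps16, Mrps17, Mrps21, Mrps22, Mrps23 and Mrps31. They are counted above by their counts, and their direction depends on the measure. Mrpl10, which anchors the stalk that holds Mrpl12, was at -0.40, -0.33 and -0.31 by counts (adjusted p = 0.0099, 0.022 and 0.054 by edgeR). Its 1 M call was lost in 5 of 17 alternatives and its 3 M call in 8 of 17, without 3 M library 1 and without control library 2 or 3 among them (adjusted p = 0.055 to 0.082), and on FPKM its 3 M value was 0.11.

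The members were also compared between times after injury. No member was called between 3 M and 1 M, 6 M and 1 M, or 6 M and 3 M by edgeR, where 8.32%, 10.1% and 0.0336% of all genes were called. At an unadjusted p under 0.05, 1, 5 and 2 mitochondrial and 0, 9 and 3 cytosolic genes passed in these comparisons. Of all 14867 genes tested, 3557, 3860 and 1043 passed at the same threshold. DESeq2 called 1 member between 3 M and 1 M, 3 between 6 M and 1 M and 1 between 6 M and 3 M. The 6 M value was above the 3 M value in 66 of 69 mitochondrial genes and in 7827 of all 14867 genes tested. The median difference was 0.16 on the log2 scale for the mitochondrial genes and 0.01 for all genes, and no member passed the test. These mitochondrial members varied together (median correlation 0.69 in the 8 SCI libraries), so they are not independent values. In the cytosolic class, 62 of 70 genes were higher at 6 M than at 1 M, against 7292 of all 14867 genes. The median difference was 0.20 for the cytosolic genes and -0.003 for all genes. At 6 M against 3 M, 56 of 70 cytosolic genes were higher, with a median of 0.12. Cytosolic genes varied together too (median correlation 0.83), and none passed the test. The 1 M libraries were in the study's batches 2 and 3, the 3 M libraries in batch 2 and the 6 M libraries in batch 4. Time and batch therefore cannot be told apart in the comparisons with 6 M. Mrpl18 and Mrps31 gave examples, at -0.60, -0.45 and -0.26 and at -0.40, -0.55 and -0.20, of calls at 1 M and 3 M that missed the threshold at 6 M (adjusted p = 0.087 and 0.19 by edgeR). Of 17 alternatives, the call of Mrpl18 was lost in 1 at 1 M and 3 at 3 M, and that of Mrps31 in 4 and 1, each time with FPKM among them. Mrps22 was called at 3 M (-0.45, adjusted p = 0.0017) and 6 M (-0.32, adjusted p = 0.026) but not at 1 M (-0.21, adjusted p = 0.08 by edgeR), and the 6 M call was lost without either 6 M library or without control library 3 (adjusted p = 0.065 to 0.106) and the 3 M call when FPKM were tested or libraries were scaled by total counts.

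In the cytosolic class, 57 of 70 genes were called at no time. Neither did the genes with the highest FPKM pass the test, with log2 fold changes of -0.01, 0.12 and 0.14 for Rpl41, the smallest ribosomal protein, and of -0.29, -0.15 and 0.04 for Rpl13a, which also functions in the control of inflammatory mRNAs in human monocytes. The median SE of the class was 0.19, 0.19 and 0.21, and a call needed a change well above the SE at this depth and number of libraries. Rpl37a, at -0.41 ± 0.19 at 1 M, was not called (adjusted p = 0.085 by edgeR). A gene that was not called may therefore still have changed by a moderate amount. Of the 56 cytosolic genes above 100 CPM in control, 1, 1 and 2 were called higher and 4, 1 and 0 lower. Of the 14 genes at or below 100 CPM, many of which are paralogues or extra copies, 3, 2 and 4 were called higher and 2, 2 and 1 lower.

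Among paralogues, Rps27l was higher at all 3 times. Rps27l differs from Rps27 in a few residues and responds to p53 in human cells. It was at 33.6, 28.3 and 27.0 CPM at 1 M, 30.1, 33.4 and 35.4 CPM at 3 M and 30.7 and 40.1 CPM at 6 M, against 18.1, 24.5 and 21.9 CPM in control, with no overlap. The log2 fold change was 0.47 ± 0.15, 0.62 ± 0.15 and 0.72 ± 0.16 (adjusted p = 0.021, 0.0044 and 0.0039 by edgeR). The 1 M call was lost without 1 M library 1 or without control library 1, (adjusted p = 0.07 and 0.064), and the 6 M call without 6 M library 2 (adjusted p = 0.054 by edgeR). The parent gene Rps27 was not called, at -0.23, 0.02 and 0.41 (adjusted p = 0.42, 0.96 and 0.21 by edgeR).

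Rps27l3, a further copy, had 70, 18 and 7 counts at 1 M, 21, 34 and 23 counts at 3 M and 26 and 26 counts at 6 M, against 0, 2 and 1 counts in control. Scaled to library size, the summed counts were 11.5 times those of control at 1 M (95% exact counting interval 3.82 to 56.8), 12.3 times at 3 M (4.04 to 60.7) and 12.1 times at 6 M (3.90 to 60.4), intervals that cover counting error only. The gene was called at all 3 times (adjusted p = 0.011, 0.0059 and 0.0093 by edgeR), and the 1 M call was lost without control library 3 (adjusted p = 0.054). Its FPKM was above 1 in SCI libraries only (0.763 to 3.72, against 0.1 to 0.478 in control), so it entered the genes tested through the groups in which it is high, and its call is a description. Whether some of its reads came from Rps27 or Rps27l was not tested.

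Rpl39l, a paralogue of Rpl39 best known from male germ cells, was lower at all 3 times. It had 6, 6 and 2 counts at 1 M, 3, 8 and 7 counts at 3 M and 3 and 6 counts at 6 M, against 8, 8 and 14 in the shallower control libraries, and the SCI libraries (0.0814 to 0.293 CPM) were all below the control libraries (0.743 to 0.943 CPM). Its FPKM was above 1 in control libraries only (0.199 to 0.744 in SCI libraries, against 1.12 to 1.41 in control), so that it entered the genes tested through the group in which it is high and its call, too, is a description. The scaled ratio was 0.170 (0.0831 to 0.330) at 1 M, 0.283 (0.148 to 0.524) at 3 M and 0.209 (0.0871 to 0.451) at 6 M, with adjusted p = 0.0012, 0.0051 and 0.0047 by edgeR. The cytosolic genes past the DEG threshold were these 2, both of which passed the filter on low values through 1 side of the comparison, Rpl39l at all 3 times and Rps27l3 at 3 M and 6 M. Of all genes tested, 10.5%, 12.7% and 10.6% were higher DEGs at the 3 times. Of the 2 tested entries of the parent gene Rpl39, ENSRNOG00000034237 was not called (0.37, 0.39 and 0.39, adjusted p = 0.11, 0.089 and 0.12 by edgeR) and ENSRNOG00000043348 was called higher at 6 M only (0.76 ± 0.21, adjusted p = 0.011).

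Rpl22l1, a paralogue of Rpl22, was called lower at 1 M and 3 M. It was at 63.2, 55.6 and 41.8 CPM at 1 M, 51.1, 54.9 and 56.8 CPM at 3 M and 72.6 and 76.5 CPM at 6 M, against 72.4, 124 and 107 CPM in control. The 1 M and 3 M libraries were below all control libraries, whereas the 6 M libraries lay just above control library 1 and below the other control libraries. The log2 fold change was -0.92 ± 0.19, -0.90 ± 0.19 and -0.44 ± 0.21 (adjusted p = 0.0024, 0.0021 and 0.1 by edgeR), and the 3 M call was lost when FPKM were tested. The other paralogues Rpl10l (0.51, 0.51 and 0.39), Rpl7l1 (0.28, 0.28 and 0.40) and Rpl5l1 (-1.08, -0.90 and -0.41) were not called, nor were the parents Rpl3, Rpl5 and Rpl7.

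Of the canonical subunits, Rpl12, at the base of the stalk, was called higher at all 3 times. It was at 400, 302 and 261 CPM at 1 M, 308, 290 and 342 CPM at 3 M and 303 and 394 CPM at 6 M, against 195, 241 and 246 CPM in control. The libraries did not overlap, and the log2 fold change was 0.50 ± 0.17, 0.46 ± 0.17 and 0.62 ± 0.18 (adjusted p = 0.026, 0.033 and 0.016 by edgeR). These calls were near the threshold, and they were lost without 1 M library 1 or control library 1 (at 1 M, adjusted p = 0.1 and 0.079), without 3 M library 1 or 3 or control library 1 (at 3 M, 0.067 to 0.103) and without 6 M library 2 (at 6 M, 0.168 by edgeR). With the replicate number as a block the 1 M and 3 M calls were lost too. Rpl31, near the exit tunnel, was at 245, 179 and 153 CPM at 1 M, 182, 190 and 204 CPM at 3 M and 214 and 262 CPM at 6 M, against 116, 156 and 177 CPM in control, and was called at 6 M (0.67 ± 0.21, adjusted p = 0.019) but not at 1 M or 3 M (adjusted p = 0.12 for both by edgeR). Its copy Rpl31l4 was called higher at 1 M (0.79 ± 0.31, adjusted p = 0.046 by edgeR), a call lost without 1 M library 1 or control library 1 or 2 (adjusted p = 0.111 to 0.207). Rps4x, the X-linked form of S4, was called higher at 6 M (0.64 ± 0.20, adjusted p = 0.022 by edgeR). The 6 M calls of Rpl31 and Rps4x were lost without 6 M library 2 (adjusted p = 0.143 and 0.185) and without control library 1 (0.05 and 0.054 by edgeR).

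Rpl36 (-0.72 ± 0.25, adjusted p = 0.028), Rpl24 (-0.54 ± 0.20, adjusted p = 0.043) and Rpl9 (-0.46 ± 0.16, adjusted p = 0.028 by edgeR) were called lower at 1 M only, and each call was lost without 1 M library 2 or 3 or control library 2 or 3 (adjusted p = 0.057 to 0.199). Of 17 alternatives the call was lost in 10 for Rpl36, 14 for Rpl24 and 13 for Rpl9, whose change was -0.05 on FPKM (adjusted p = 0.76 by limma). For each of them the 1 M libraries overlapped those of control, in which library 2 was the highest, as for Rpl24 at 295, 267 and 240 CPM at 1 M, against 270, 530 and 363 CPM in control. Of the 2 Rpl37 entries, ENSRNOG00000034180 was not called at any time and ENSRNOG00000033803 was lower at 1 M (-0.44, adjusted p = 0.021) and 3 M (-0.52, adjusted p = 0.0088 by edgeR). Its 1 M call was lost in 10 of 17 alternatives (adjusted p up to 0.24), also without 1 M library 2 or 3 or control library 2, and its 3 M call in 1 (adjusted p = 0.059 by edgeR with no filter).

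**Figure D4:**
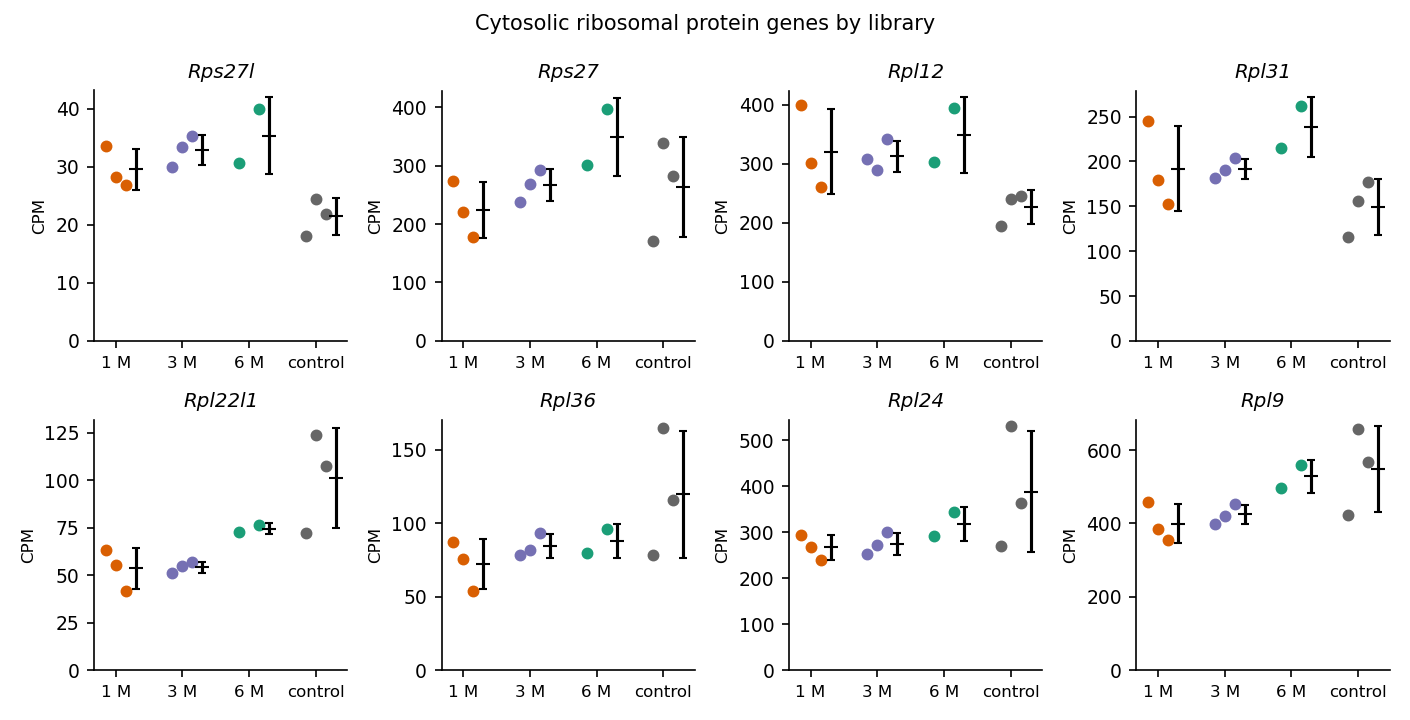
CPM in each library (points) with the mean ± SD of each group for 8 cytosolic ribosomal protein genes in the 1 M, 3 M, 6 M and control groups. The SCI libraries of Rps27l and Rpl12 lie above all control libraries, the 1 M and 3 M libraries of Rpl22l1 lie below them, and those of Rpl24 overlap them at 1 M.

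The genes around the ribosome were read in the same way. Of all genes tested, 31.5%, 31.4% and 27.2% were called lower and 25.5%, 29.7% and 26.8% higher at the 3 times. Of 75 nuclear-encoded OXPHOS subunit genes tested, whose complexes also contain the products of mitochondrial translation, 67, 71 and 61 were lower and none was higher, with medians of -0.88, -0.95 and -0.76. Ndufa8, a complex I subunit, changed by -1.22, -1.65 and -1.50, whereas Cox6a2, the muscle form of a complex IV subunit, was not called (-0.46, 0.33 and 0.54). Of 8 mitochondrial ribosomal proteins outside the naming rule, 6, 7 and 3 were lower, such as Mrps18a (-0.87, -0.86 and -0.81). The 1 gene of them called higher was Ptcd3, a pentatricopeptide protein of the small subunit, which was at 115, 126 and 96.5 CPM at 1 M, 78.2, 74.2 and 76.8 CPM at 3 M and 75.4 and 71.2 CPM at 6 M, against 60.1, 48.6 and 52.0 CPM in control (1.07, 0.51 and 0.45, adjusted p = 4.3e-05, 0.0025 and 0.01 by edgeR).

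Of 41 genes for mitochondrial translation factors, aminoacyl-tRNA synthetases, ribosome assembly and the transcription machinery and regulators of mitochondrial genes, 20, 21 and 14 were lower and 4, 4 and 5 higher, with medians of -0.29, -0.28 and -0.17. Tsfm, the mitochondrial elongation factor Ts, changed by -0.96, -0.89 and -0.75, and Ears2, the glutamyl-tRNA synthetase, by 0.55, 0.86 and 0.62. Ppargc1a, a member of the same list and the coactivator PGC-1alpha that promotes mitochondrial gene expression, was higher (1.55, 1.72 and 1.64). The mitochondrially encoded genes were not among the genes tested.

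On the cytosolic side the lists were mixed. Beside them stand the shares of all genes tested, 31.5%, 31.4% and 27.2% lower and 25.5%, 29.7% and 26.8% higher. A list near these shares does not stand out from other genes. Of 8 cytosolic ribosomal protein genes outside the naming rule, none was called higher and 0, 1 and 1 were called lower, namely Rps4y2 at 3 M and 6 M (-0.67 and -0.75). Of 34 initiation factor genes, 14, 17 and 9 were lower and 5 higher at each time, with Eif6, a factor that keeps the large subunit free, at -0.70, -0.62 and -0.58 and Pabpc1, the poly(A)-binding protein, at 1.07, 0.89 and 0.69. Of 12 genes for elongation factors and factors of the nascent chain, 3, 4 and 2 were lower and 2, 2 and 3 higher. Eef1a1 was at 0.77, 0.89 and 0.90, and Eef1a2, the form used by neurons and muscle in place of Eef1a1, was at -1.44, -2.82 and -2.79. Of 37 ribosome biogenesis genes, 11, 12 and 9 were lower (29.7%, 32.4% and 24.3%), near the share of all genes, such as Nop10 (-0.76, -0.89 and -0.79). Another 8, 5 and 5 were higher (21.6%, 13.5% and 13.5%), such as Utp15 (0.95, 0.86 and 0.87). Of 12 RNA polymerase I genes, 2, 1 and 1 were lower and 3, 3 and 4 higher. Of 17 genes of mTOR and TOP mRNA control, 4, 4 and 5 were lower and 6, 4 and 5 higher, among them Mlst8, an mTOR subunit (-0.52, -0.61 and -0.73), and Myc, which drives ribosome synthesis (1.75, 1.57 and 1.32).

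**Figure D5:**
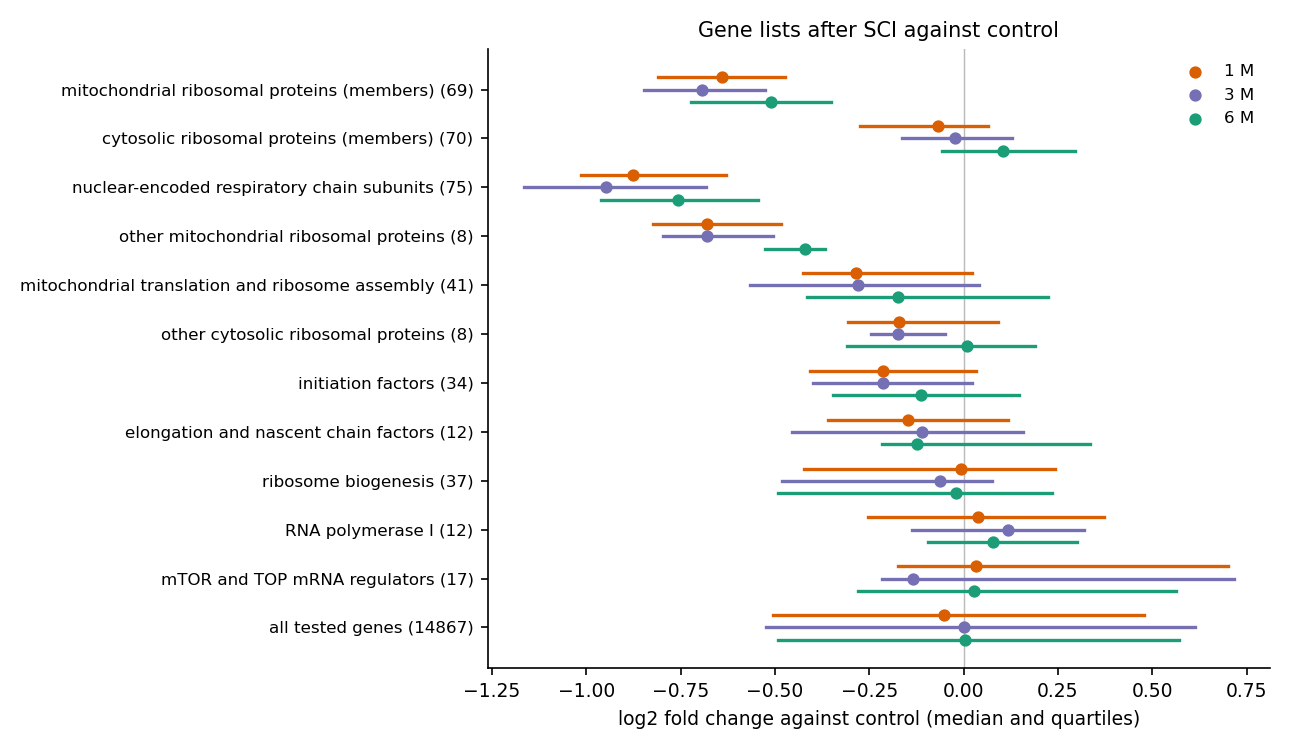
Median log2 fold change against control (points) with quartiles (lines) at 1, 3 and 6 months for the ribosomal protein classes, the related gene lists and all tested genes, with the number of genes in parentheses. The OXPHOS list and the mitochondrial ribosomal proteins lie below 0 and the cytosolic ribosomal proteins near 0.

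Cell type markers also differed between SCI and control. All 13 neuron markers were lower at each time, and their summed level was 3845 to 4434 CPM at 1 M, 1658 to 2064 CPM at 3 M and 712 to 2621 CPM at 6 M, against 8593 to 11921 CPM in control. Of 10 oligodendrocyte markers, 8, 9 and 9 were lower, and the sum was 39225 to 42097, 31088 to 35134 and 37571 to 38475 CPM, against 91183 to 96173 CPM in control. Of 10 microglia markers 9 were higher at each time, at a sum of 2495 to 3630, 2150 to 2238 and 1874 to 2279 CPM, against 788 to 1019 CPM in control. Of 10 macrophage markers 8, 9 and 9 were higher, at 3100 to 4703, 2908 to 3099 and 1934 to 2318 CPM, against 312 to 436 CPM in control, and no marker of these lists was at 0. Of 8 astrocyte markers, 2, 2 and 3 were higher and 3, 2 and 0 lower, but their sum was 22292 to 25735, 29461 to 30878 and 30278 to 31813 CPM, against 16748 to 19584 CPM in control. Of 7 T cell markers, 2, 5 and 3 were higher, at a mean sum of 106, 93.7 and 91.9 CPM, against 20.9 CPM in control. Between 3 M and 1 M the neuron markers differed by a median of -1.08 on the log2 scale. Of these 13 markers, 3 were called lower by edgeR, against 3.30% of all genes tested. The median was -0.28 for oligodendrocyte, -0.48 for microglia and 0.22 for astrocyte markers, and -0.03 for the mitochondrial ribosomal protein genes. The part of these cell types in the lower mitochondrial ribosomal protein counts was not tested, and in bulk tissue fewer cells of a type and less RNA per cell cannot be told apart. No sequencing batch given by the study held libraries of both SCI and control rats, and these 2 differences cannot be told apart either.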

How the data were processed

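Poly-A selected RNA was sequenced in paired ends. Per the submitters' processing notes the tools were CASAVA 1.7, TopHat2 2.1.0, Cufflinks 2.2.1 and HTSeq, and the paper names the rat genome build Rnor6. The authors deposited whole-number HTSeq counts per gene and Cufflinks FPKM, in which 41.8% of values stand at a floor of 0.1. The strand setting of the counting is not given in the sources used here. Genes with FPKM above 1 in at least 1 library were tested on the deposited counts with edgeR 4.0.16 in R 4.3.3 (TMM scaling, quasi-likelihood test, all 4 groups in 1 fit, Benjamini-Hochberg adjustment over 14867 genes, threshold 0.05). Fold changes are on the log2 scale, SCI over control, and SEs come from the fit. The deposited FPKM were tested as log2(FPKM + 1) with limma 3.58.1, and DESeq2 1.42.0 was a further alternative. Others were no filter or the filterByExpr filter, scaling by total counts or upper quartiles, and a gene length trend. The length in this trend was inferred from the ratio of counts to FPKM. Further settings were only the groups compared, 1 batch per group, a replicate block and leaving out each library. The code was tested on simulated data.

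Genes named were the 5 highest and 5 lowest called changes of each class and time, the 3 highest and 3 lowest control FPKM, the paralogues with their parents, and 2 to 4 members of each list with the highest or lowest change at 3 M. Mitochondrial genes called at no time or turning with FPKM, and Mrpl4, Mrpl10, Mrpl18, Mrpl23, Mrps22 and Mrps31, were added after their values were seen. Members and lists were chosen with earlier results of these data known. Since every library is a pool of 3 rats, p-values here rest on the variation among pools. Columns of per-sample values left unused numbered 0. Promoter letters come from RefSeq (GRCr8), matched by symbol.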

Additional observations from a re-analysis of the deposited data

How the results depend on the processing

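The fall of the mitochondrial class kept its direction in all alternatives run, with medians, leaving single libraries out aside, of -0.63 to -0.28 at 1 M, -0.71 to -0.29 at 3 M and -0.54 to -0.21 at 6 M. Scaling by total counts moved the median of all genes to 0.16, 0.22 and 0.22 and upper quartiles to 0.06, 0.13 and 0.13, and relative to it the mitochondrial median stayed between -0.69 and -0.51. The cytosolic median changed sign with the setting at 1 M (-0.06 to 0.19) and 3 M (-0.02 to 0.23) but not at 6 M (0.10 to 0.33). With single libraries left out it changed sign at all 3 times. Members called were, for limma on FPKM, 34, 36 and 23 mitochondrial and 20, 25 and 20 cytosolic at the 3 times. They were 4, 9 and 4 mitochondrial and 1, 2 and 2 cytosolic at the DEG threshold. Cytosolic calls were 25, 27 and 28 with the gene length trend, 19 (3 M) and 20 (6 M) with total counts, 12 and 12 with upper quartiles, and, at 6 M, 11 with filterByExpr and 13 without a filter. At 1 M they were 6 with 1 batch per group and 5 with only the groups compared. Mitochondrial calls at 6 M were 25 without a filter and 26 with total counts. Between times, where the main count was 0, DESeq2 called 1, 3 and 1 members, and between 6 M and 1 M 1 was called with filterByExpr, 2 with the length trend, 2 with limma, 3 without a filter, 1 with total counts and 1 with upper quartiles. The causes were not tested.

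Leaving out 1 library gave 50 to 66, 53 to 64 and 25 to 54 mitochondrial and 6 to 15, 5 to 10 and 3 to 12 cytosolic calls against control, 0 to 1 between 6 M and 1 M, and 0 otherwise between times. The replicate block gave 58, 59 and 35 mitochondrial and 6, 5 and 7 cytosolic calls. Replicate numbers did not pair the libraries, since deviations of same-numbered libraries correlated between -0.47 and 0.34.

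Of 94 called tests on named genes, 37 held in every alternative. Those that turned direction all did so with limma on FPKM, namely Mrpl45 (0.01) and Mrpl39 (0.22) at 1 M, Mrpl10 (0.11), Mrpl44 (0.018) and Mrpl30 (0.017) at 3 M, Mrps17 (0.031 at 1 M, 0.11 at 3 M), Mrpl3 (0.10 at 3 M, 0.019 at 6 M), Mrpl35 (0.091, 0.17 and 0.11) and Mrpl51 (0.22, 0.30 and 0.31). Control depth limits the low-count paralogues.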
